A study of Drosophila melanogaster with 72 samples.

Results

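Lipid droplets are stores of neutral fat, and 6 genes of droplet biology were followed here: Jabba, Lsd-1, Lsd-2, bmm, klar and mdy. They were chosen by name, are 6 of the 16680 genes in the tables, and passed the filter on low counts in every experiment. On the dm6 build of the fruit fly genome, Jabba lies on chromosome 2R (18757074 to 18761082, minus strand), Lsd-1 on 3R (23763857 to 23766662, plus strand) and Lsd-2 on X (15069127 to 15076220, minus strand). The other 3 are bmm on 3L (14776496 to 14786412, minus strand), klar on 3L (434083 to 540614, minus strand) and mdy on 2L (16816660 to 16826964, plus strand). These are whole gene spans, with exons, introns and UTRs. Lsd-1 shares 144 of its 1960 exonic bases with CG10214 on the opposite strand, and the other members share 64 or fewer with any neighbour. The strand setting of the counting was not given in the sources used here.

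An early fly embryo is loaded by its mother with droplets and with the RNAs that serve them, and it destroys much of that maternal RNA when its own genome becomes active. Jabba anchors surplus maternal histones on droplets. The perilipins Lsd-2 and Lsd-1 coat the droplet surface and control access of lipases. The enzyme encoded by mdy, a diacylglycerol acyltransferase, makes triglyceride, and the lipase brummer (bmm) breaks it down. Klarsicht (klar) coordinates the motors that carry droplets along microtubules in embryos.

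The series comprised 72 libraries of rRNA-depleted total RNA, in 36 groups of 2 and 6 experiments. Embryos labelled IntS11 mislocalized or IntS9 mislocalized, and embryos with IntS11 knockdown, were each collected with their own wild type at 0 to 0.5, 1 to 1.5 and 2.5 to 3 h. Embryos with alpha-amanitin, an inhibitor of RNA polymerase II, and their controls were collected in the later 2 windows, as were wild type, IntS11 mislocalized, and IntS11 mislocalized embryos with Flag IntS11 WT or Flag IntS11 E203Q in a rescue experiment. Larvae labelled zygotic mutant and wild type larvae were collected at 24, 48 and 72 h after egg laying; the gene is not named. IntS11 is the RNA-cleaving subunit of the Integrator complex and IntS9 is its partner subunit; E203Q names a substitution in IntS11. Not given in the sources used here are alleles, drivers, the way in which a protein was mislocalized and whether replicates came from separate crosses. P-values therefore measure only the spread between these libraries, which may be technical.

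Libraries held 2061575 to 26074431 counts. The 6 wild type libraries of the knockdown experiment were the shallowest, at 2061575 to 2590455 counts, beside 10415095 to 12468983 in the knockdown. IntS11 itself was at 4.56 to 15.3 CPM in the knockdown and 76.5 to 107 CPM in its wild type, and at 3.06 to 6.78 CPM in zygotic mutant larvae against 13.6 to 21.7 CPM in wild type. In the rescue experiment it was at 1945 to 2483 CPM in the embryos with Flag IntS11 and 123 to 186 CPM in the others. Levels below are CPM, counts scaled to a common library size after TMM normalization within an experiment. They are shares of a library, so RNA per embryo was not measured. A gene is called changed at an adjusted p below 0.05 in edgeR's quasi-likelihood test, and the share of all tested genes that were called is given beside each count of members. Where groups are said not to overlap, the share of all genes without overlap was not counted.

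In newly laid wild type embryos, Jabba and Lsd-2 were abundant and Lsd-1 was scarce. Per unit of transcript length, in the deposited TPM, Jabba averaged 516, 530 and 307 TPM at 0 to 0.5 h in the IntS11, IntS9 and knockdown experiments. It ranked 141st, 148th and 225th among all genes above 0. Lsd-2 averaged 208, 311 and 299 TPM. The klar, mdy and bmm transcripts lay together, at 21.5 to 36.3, 22.1 to 26.7 and 19.6 to 28.8 TPM. Lsd-1 averaged 1.94, 1.72 and 1.26 TPM. In larvae the order was different, and Lsd-1 averaged 42.7 TPM in wild type at 24 h beside 22.4 TPM for Jabba.

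**Figure D1:**
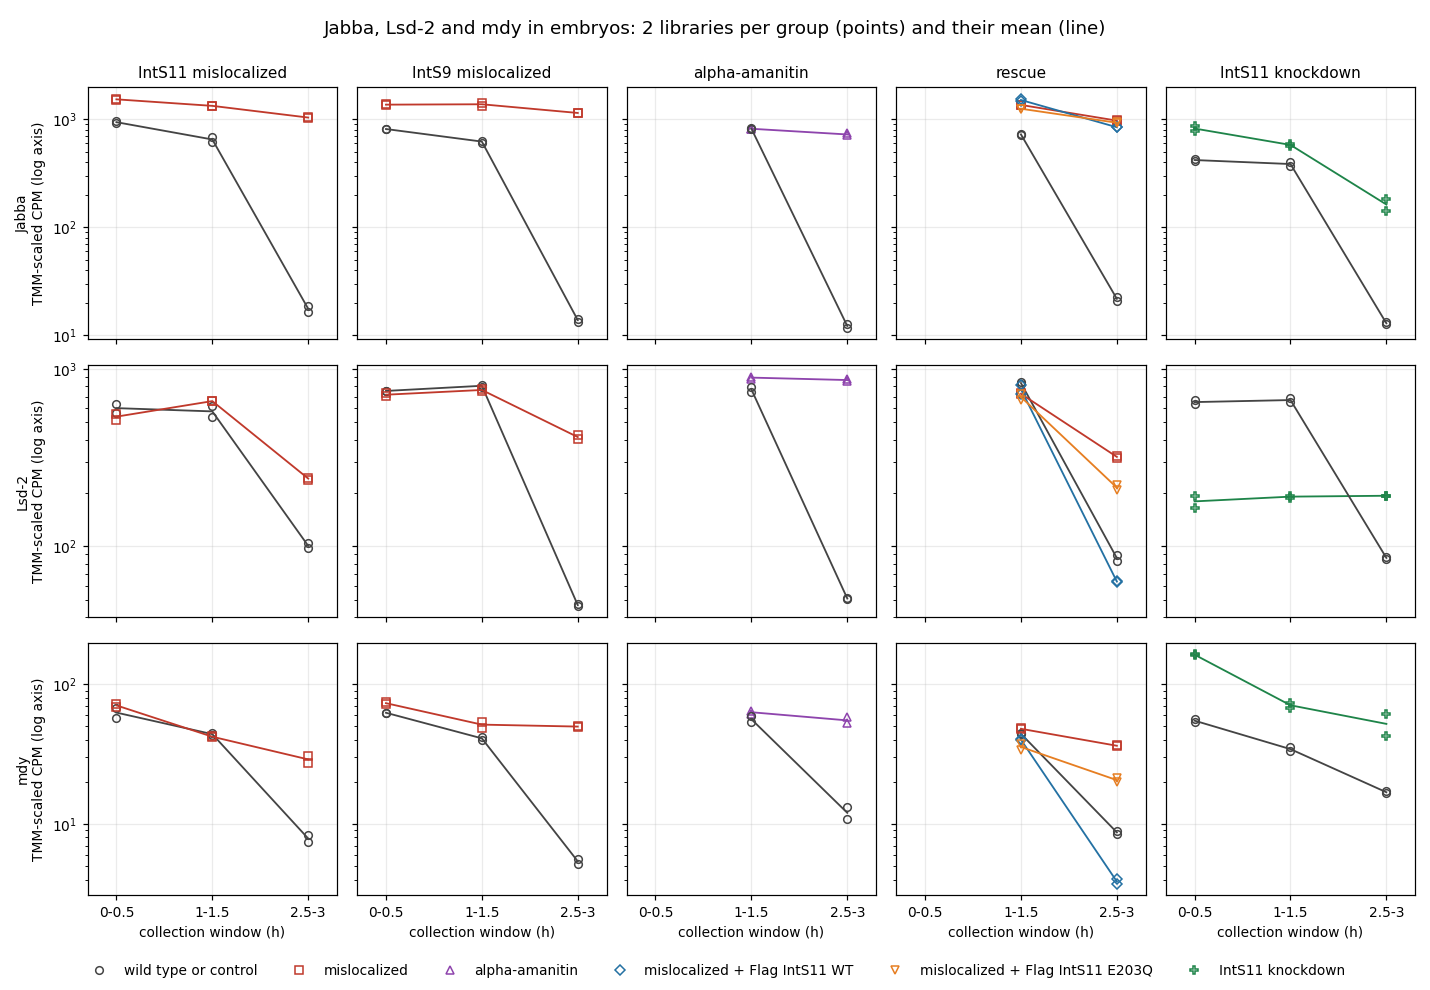
Jabba, Lsd-2 and mdy in embryos by collection window. Points are the TMM-scaled CPM of single libraries (log axis), lines join the means of 2, and columns are the 5 embryo experiments; in all 5 controls each gene is lower at 2.5 to 3 h than at 1 to 1.5 h.

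Jabba, Lsd-2 and mdy RNA was lost from control embryos between 1 to 1.5 h and 2.5 to 3 h. Jabba was at 681 and 618 CPM in the wild type of the IntS11 mislocalized experiment at 1 to 1.5 h, and at 18.6 and 16.4 CPM at 2.5 to 3 h. Over the 5 experiments with a control, 1.48 to 3.34% of the earlier Jabba level was left, 5.79 to 17.4% of Lsd-2 and 13.2 to 49.1% of mdy. Bmm and Lsd-1 went the other way, to 136 to 230% and 230 to 564% of the earlier level, and klar stood at 85.0 to 132%. In the 4 experiments in which this step was tested, the log2 change of Jabba was −5.21 (SE 0.10), −5.50 (SE 0.08), −4.90 (SE 0.16) and −6.08 (SE 0.07) in the IntS11, IntS9, knockdown and amanitin experiments. The highest of these 4 adjusted p-values was 2.49e-15. The change of Lsd-2 was −2.52, −4.11, −2.96 and −3.92, and that of mdy −2.48, −2.92, −1.02 and −2.21, called each time. Bmm rose by 0.61, 0.95, 0.78 and 1.2, and Lsd-1 by 1.2, 1.99, 1.98 and 2.48, called each time. Klar was called in 2 of the 4 (0.40 and 0.34 in the IntS11 and knockdown experiments) and had changes of 0.03 and −0.08 in the IntS9 and amanitin experiments; the knockdown call was lost without either of 2 single libraries (0.30 and 0.28). Most of the transcriptome was called at this step: 81.1%, 81.4%, 73.3% and 90.5% of the genes tested, so 6, 5, 6 and 5 called members are near the background. Counted from the lowest change, Jabba was 50th of 8804, 104th of 9217 and 59th of 8517 genes in the IntS11, IntS9 and amanitin experiments.

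Between the first 2 windows the wild type changes were small. Jabba fell by 0.53 and mdy by 0.51 on the log2 scale in the IntS11 experiment, where bmm rose by 0.48 and 32.3% of genes were called. The rise of bmm was not called without replicate 1 of the 0 to 0.5 h wild type (0.34). Jabba, mdy and Lsd-1 fell by 0.39, 0.61 and 0.91 in the IntS9 experiment, where 41.2% were called. In the knockdown experiment 1.68% were called, and mdy alone of the 6 passed, at −0.68 (adjusted p = 0.0478); it did not pass with RLE size factors (−0.65), with DESeq2 (−0.65) or without any single library of that step (−0.73 to −0.63).

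Under alpha-amanitin none of the 6 passed the test for a change between the windows, and 2.84% of genes were called. When only these groups were fitted, Jabba (−0.18) and mdy (−0.19) did pass. Jabba was at 820 and 814 CPM at 1 to 1.5 h and at 708 and 738 CPM at 2.5 to 3 h under the drug. The control libraries were at 812 and 824 CPM and then at 11.7 and 12.6 CPM. The groups overlap in the early window and lie far apart in the late one. The log2 difference of Jabba was 0.00 (SE 0.05) at the early window and 5.90 (SE 0.07, adjusted p = 6.41e-16) at the late one, the 60th highest of 8517 genes. Lsd-2 was at 881 and 853 CPM against 50.3 and 51.3 CPM (log2 4.09, SE 0.06), and mdy at 52.3 and 57.8 CPM against 13.2 and 10.8 CPM (log2 2.18, SE 0.10). The genes that rise in controls were lower under the drug. Bmm was at 83.7 and 83.1 CPM against 226 and 241 CPM (log2 −1.49, SE 0.06), and Lsd-1 at 2.01 and 1.87 CPM against 9.19 and 10.7 CPM (log2 −2.35, SE 0.20). Klar was higher by 0.21, and was not called with RLE size factors or DESeq2 (0.10 in each). All 6 were called at 2.5 to 3 h, when 89.7% of genes were. At 1 to 1.5 h Lsd-2 (0.22) and bmm (−0.30) were called among 33.5% of genes; the Lsd-2 call was lost without replicate 2 of either group. The drug's effect differed between the windows for Jabba, Lsd-1, Lsd-2, bmm and mdy, as it did for 72.7% of genes.

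Jabba stayed high in embryos with mislocalized IntS11, and it was already above wild type in the first window. Gene-level counts cannot tell RNA of the Jabba locus from RNA of a construct with Jabba sequence, as set out below for these lines. Jabba was at 1540 and 1519 CPM against 963 and 917 CPM at 0 to 0.5 h, at 1325 and 1337 CPM against 681 and 618 CPM at 1 to 1.5 h, and at 1053 and 1022 CPM against 18.6 and 16.4 CPM at 2.5 to 3 h. The groups do not overlap in any window. The log2 differences were 0.70 (SE 0.08, adjusted p = 4.79e-06), 1.03 (SE 0.08, adjusted p = 3.71e-08) and 5.89 (SE 0.10, adjusted p = 9.89e-16), and the last was the 24th highest of 8804. Lsd-2 differed by −0.16 and 0.19 in the first 2 windows, called in neither. In the late window it was at 238 and 244 CPM against 104 and 97.3 CPM (log2 1.26, SE 0.09), and mdy at 30.8 and 27.1 CPM against 8.29 and 7.44 CPM (log2 1.88, SE 0.13). Jabba in the mislocalized embryos kept 78.0% of its 1 to 1.5 h level, mdy 68.8% and Lsd-2 36.5%. Within these embryos Jabba, Lsd-2 and mdy still fell, by 0.36, 1.45 and 0.54 on the log2 scale, and bmm rose by 0.29. The Jabba step was not called without either 1 to 1.5 h library (−0.21 and −0.19), nor was that of bmm without replicate 2 of the late window (0.21). Of all genes, 56.3% were called in that step.

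Lsd-1 and bmm were lower than wild type in the late window there, and klar was higher. Lsd-1 was at 4.01 and 4.09 CPM against 10.3 and 11.4 CPM at 2.5 to 3 h (log2 −1.42, SE 0.19). It was also lower at 0 to 0.5 h (−0.79), a call that was lost without replicate 2 of the wild type (−0.76) or replicate 1 of the mislocalized embryos (−0.62). Bmm was at 92.0 and 102 CPM against 129 and 150 CPM at 2.5 to 3 h (log2 −0.52, SE 0.10), which was not called when libraries were scaled by total counts (−0.16) or when only these groups were fitted (−0.19). In TPM its libraries overlapped and the means, 29.2 and 26.6, took the opposite order. Klar was higher by 0.55 at 1 to 1.5 h and by 0.20 at 2.5 to 3 h, and the latter call was lost without replicate 1 of the wild type or replicate 2 of the mislocalized embryos. Members called numbered 2, 2 and 6 in the 3 windows, beside 31.7%, 47.3% and 83.3% of genes. The median log2 difference of all genes at 2.5 to 3 h was −0.38 with TMM scaling and −0.02 with total counts, a shift of 0.36. No called member changed its direction with either other scaling. The effect differed between the later 2 windows for Jabba (4.86, SE 0.13), mdy (1.94), Lsd-2 (1.07), Lsd-1 (−0.89) and klar (−0.35), and 60.8% of genes passed that test. The difference of Lsd-1 lost its call in 7 of 14 settings and that of klar in 9 of 14, among them total counts (−0.58 and −0.05).

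With mislocalized IntS9, Jabba was above wild type in every window, and Lsd-2 and mdy were well above it at 2.5 to 3 h. Here too the source of the Jabba RNA cannot be told from the counts. Jabba was at 1380 and 1351 CPM against 814 and 809 CPM at 0 to 0.5 h, at 1427 and 1327 CPM against 635 and 607 CPM at 1 to 1.5 h, and at 1149 and 1138 CPM against 13.3 and 14.2 CPM at 2.5 to 3 h. The log2 differences were 0.75 (SE 0.05), 1.15 (SE 0.05) and 6.38 (SE 0.08). In the late window Lsd-2 was at 403 and 424 CPM against 46.2 and 47.0 CPM (log2 3.15, SE 0.06), and mdy at 50.03 and 49.5 CPM against 5.17 and 5.64 CPM (log2 3.20, SE 0.10). Both groups are well separated. The mislocalized embryos kept 83.1% of the earlier Jabba level, 96.8% of mdy and 54.2% of Lsd-2. Within them Jabba and Lsd-2 fell by 0.27 and 0.88, bmm and Lsd-1 rose by 0.57 and 0.51, and 70.9% of genes were called.

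Lsd-1 was above wild type in every window of this line. It was at 21.2 and 21.9 CPM against 2.96 and 3.36 CPM at 0 to 0.5 h, at 18.1 and 19.2 CPM against 1.89 and 1.46 CPM at 1 to 1.5 h, and at 27.0 and 26.0 CPM against 7.04 and 6.32 CPM at 2.5 to 3 h. The log2 differences were 2.77 (SE 0.13), 3.47 (SE 0.15) and 1.98 (SE 0.11). The summed level of the 6 listed fat body markers was 29.7 to 31.1, 16.1 to 18.6 and 7.03 to 7.13 CPM in the mislocalized embryos in these windows and 75.2 to 80.7, 0.37 to 0.65 and 3.64 to 3.90 CPM in wild type; their part in the Lsd-1 difference was not tested. Bmm was higher by 0.26 in each of the first 2 windows and mdy by 0.23 and 0.33; the bmm calls were lost without single libraries (0.21 to 0.24), and the early bmm and mdy calls with DESeq2 (0.20 and 0.17). Klar was not called in any window. Members called numbered 4 in each window, beside 52.6%, 59.4% and 83.4% of genes. The effect differed between the later windows for Jabba (5.23), Lsd-2 (3.23), mdy (2.87), Lsd-1 (−1.48) and bmm (−0.39), and for 66.2% of genes.

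When the 2 lines were set against each other in a joint model, the late effect on Jabba did not pass the test (IntS11 minus IntS9: −0.18, SE 0.12, adjusted p = 0.285). The effects on Lsd-1 (−3.10, SE 0.23), Lsd-2 (−1.58, SE 0.12) and mdy (−1.02, SE 0.18) were lower for IntS11, and that on klar was higher (0.46, SE 0.14). Each effect was taken against the wild type of its own experiment, so line and experiment cannot be told apart in this model. The klar difference was lost with total counts (0.39) or without any of 3 single libraries. Of all genes, 26.4% passed this test, and 4 of the 6 members did.

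**Figure D2:**
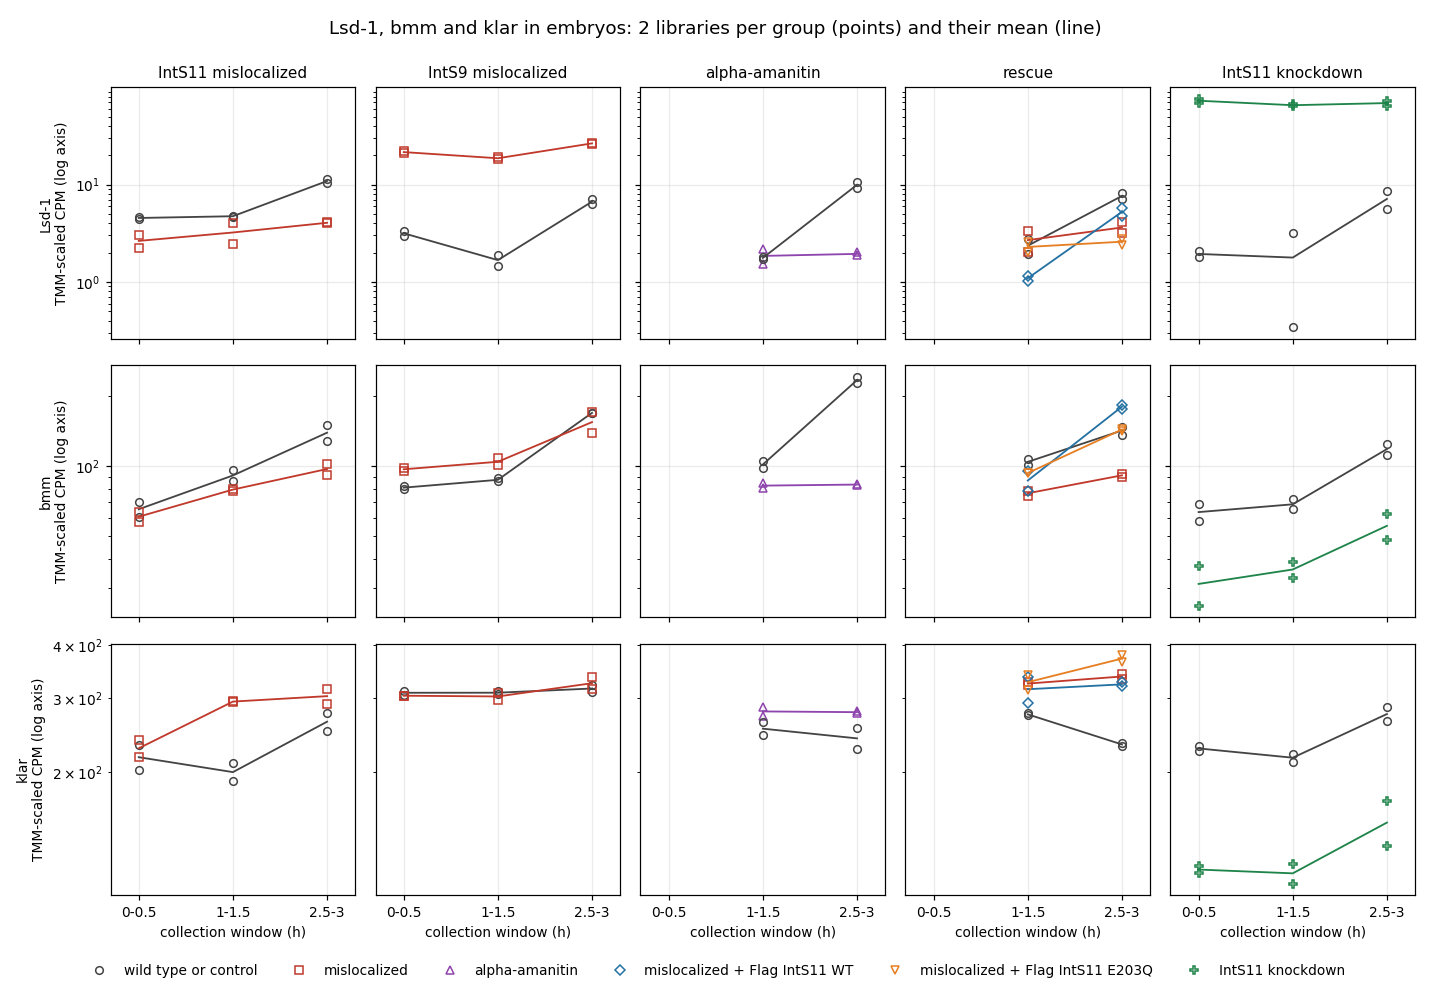
Lsd-1, bmm and klar in embryos by collection window, drawn as for Jabba, Lsd-2 and mdy. Points are the TMM-scaled CPM of single libraries (log axis); Lsd-1 in IntS9 mislocalized embryos (18.1 to 27.0 CPM) and in IntS11 knockdown embryos (63.9 to 76.2 CPM) lies above its wild type in every window.

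The estimated mean length of Jabba transcripts was lower in the mislocalized lines. The deposited tables give a mean transcript length per gene and library, weighted by the estimated share of each isoform. For Jabba it was 1324 to 1370 bases in all 24 libraries of lines labelled mislocalized, with or without Flag IntS11, and 1374 to 1450 bases in the 26 wild type and control libraries. In the late window the ranges were 1324 to 1330 bases in 10 libraries and 1374 to 1450 bases in 10. The 4 alpha-amanitin libraries were at 1426 to 1429 bases, and the 6 knockdown libraries at 1393 to 1414 bases. As background, a fusion of Jabba with a nanobody against GFP, called JabbaTrap, is an established tool that holds GFP-tagged proteins on droplets in fly embryos. Whether it was used in these lines is not stated by the labels. Gene-level counts cannot tell RNA of the Jabba locus from RNA of a construct that carries Jabba sequence, so for Jabba in these lines the 2 sources cannot be told apart. At 2.5 to 3 h Lsd-2 and mdy were also above wild type in mislocalized embryos without Flag IntS11. With Flag IntS11 WT, Lsd-2 and mdy were below wild type and Jabba was above it. The bearing of this on the source of the Jabba RNA was not tested.

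**Figure D3:**
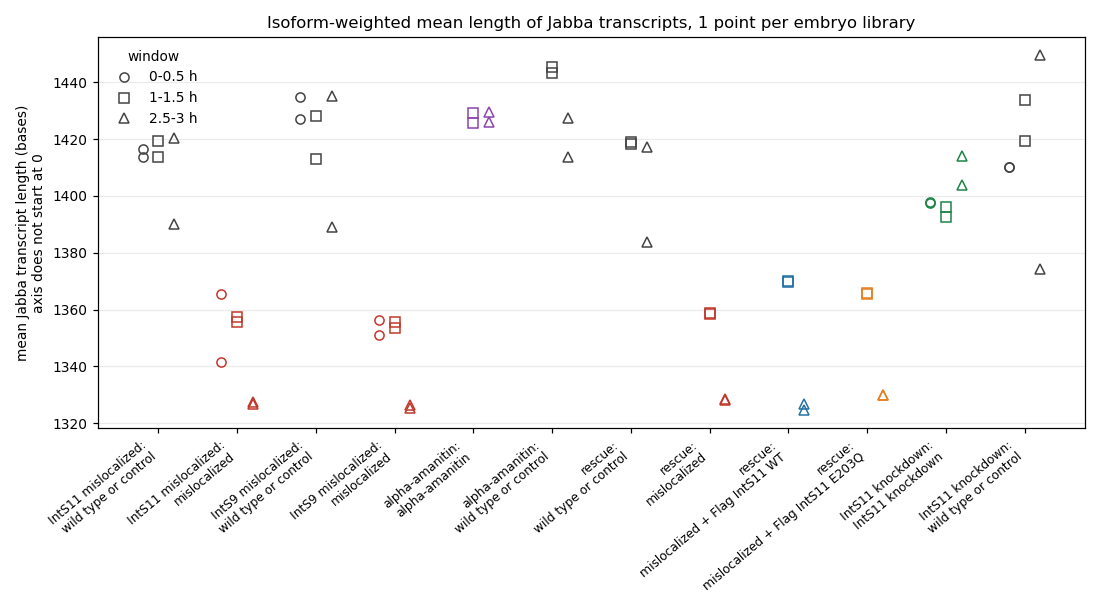
Mean length of Jabba transcripts, weighted by estimated isoform share, in bases for each embryo library. Symbols give the window and columns the group; the y axis does not start at 0, and the 24 libraries of mislocalized lines (1324 to 1370) lie below the 26 wild type and control libraries (1374 to 1450).

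In the rescue experiment Lsd-2 and mdy returned to or below the wild type level with Flag IntS11 WT, and Jabba did not. At 2.5 to 3 h Lsd-2 was at 82.4 and 89.4 CPM in wild type, 325 and 314 CPM in mislocalized embryos, 63.4 and 63.2 CPM with Flag IntS11 WT and 222 and 207 CPM with Flag IntS11 E203Q. The mdy transcript was at 8.49 and 8.92, 35.9 and 36.6, 3.74 and 4.01, and 20.0 and 21.2 CPM in the same order. No 2 of these groups overlap for either gene. Jabba was at 22.6 and 20.8 CPM in wild type, 961 and 981 CPM in mislocalized embryos, 844 and 843 CPM with Flag IntS11 WT and 940 and 917 CPM with Flag IntS11 E203Q. All 3 mislocalized groups lie far above wild type for Jabba. The 10 listed markers of ovary follicle cells summed to 51.0 to 55.5 CPM in the mislocalized embryos of this window and to 0.41 to 2.69 CPM in the other 3 groups; their part was not tested. Against the mislocalized embryos, Flag IntS11 WT changed Lsd-2 by −2.34 (SE 0.06), mdy by −3.23 (SE 0.11) and Jabba by −0.20 (SE 0.05). Against wild type it left Lsd-2 at −0.44 (SE 0.07), mdy at −1.17 (SE 0.13) and Jabba at 5.28 (SE 0.06, adjusted p = 1.17e-26), the 10th highest of 9156 genes. Flag IntS11 E203Q changed Lsd-2 by −0.58 and mdy by −0.82 against mislocalized embryos, and Jabba by −0.06, not called. Set directly against E203Q, Flag IntS11 WT embryos were lower in Lsd-2 (−1.76, SE 0.06) and mdy (−2.41, SE 0.11), while the Jabba difference of −0.14 was lost with RLE size factors (−0.08), with DESeq2 (−0.08) and without any of 3 single libraries.

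Bmm moved in the opposite sense to Lsd-2 and mdy. It was at 137 and 148 CPM in wild type, 89.8 and 92.8 CPM in mislocalized embryos, 183 and 176 CPM with Flag IntS11 WT and 142 and 145 CPM with E203Q. Its log2 change was −0.64 from wild type to mislocalized, then 0.98 with Flag IntS11 WT and 0.65 with E203Q, all called. Lsd-1 was at 8.19 and 7.08, 3.17 and 4.08, 4.71 and 5.78, and 2.39 and 2.79 CPM in the same order of groups. It was lower in mislocalized embryos than in wild type (−1.07), and its rise with Flag IntS11 WT (0.53) was lost with total counts (0.41), with DESeq2 (0.60) and without either of 2 single libraries (0.36 and 0.38). Klar was higher than wild type in mislocalized embryos (0.53) and with Flag IntS11 WT (0.47), and the difference between these last 2 was not called (−0.06, SE 0.06). At 2.5 to 3 h, 6 members were called between mislocalized and wild type (81.9% of genes), 5 between Flag IntS11 WT and mislocalized (78.4%) and 4 between E203Q and mislocalized (53.5%). All 6 were called between the 2 Flag groups (75.1%) and between Flag IntS11 WT and wild type (44.5%). Among these calls, that of klar between E203Q and mislocalized (0.14) was lost without any single library, and that of Lsd-1 between Flag IntS11 WT and wild type (−0.54) with DESeq2 (−0.63) or without 1 library of either group (−0.42 and −0.39).

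At 1 to 1.5 h the rescue groups differed less. Jabba was at 719 and 729 CPM in wild type, 1361 and 1356 CPM in mislocalized embryos, 1468 and 1550 CPM with Flag IntS11 WT and 1256 and 1247 CPM with E203Q. The log2 difference from wild type was 0.91 in mislocalized embryos and 1.06 with Flag IntS11 WT. The changes of 0.15 with Flag IntS11 WT and −0.12 with E203Q against mislocalized embryos were called. The first lost its call in 4 of 10 settings, 3 of them single libraries left out (0.11 to 0.15). The second lost it in 9 of 10, among them every library left out (−0.13 to −0.12), RLE size factors (−0.07) and total counts (−0.01). Between the Flag groups Jabba was higher with WT by 0.27. Lsd-1 was lower with Flag IntS11 WT than in mislocalized embryos (−1.30), E203Q embryos (−1.07) and wild type (−1.13), from 18 and 15 counts in the 2 Flag IntS11 WT libraries, and each call was lost without 1 library (−0.90, −0.89 and −0.83). The mdy transcript was lower with E203Q than in mislocalized embryos (−0.43). Called members numbered 4 for mislocalized against wild type (53.4% of genes), 3 for each Flag group against mislocalized (24.2% for WT and 43.7% for E203Q), 3 between the Flag groups (45.7%) and 4 for Flag IntS11 WT against wild type (43.4%). From the first of these windows to the second, Flag IntS11 WT embryos kept 55.9% of Jabba, 8.23% of Lsd-2 and 9.67% of mdy. Wild type embryos kept 3.00%, 10.3% and 19.7%, mislocalized embryos 71.5%, 44.1% and 75.6%, and E203Q embryos 74.2%, 30.8% and 57.9%.

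**Figure D4:**
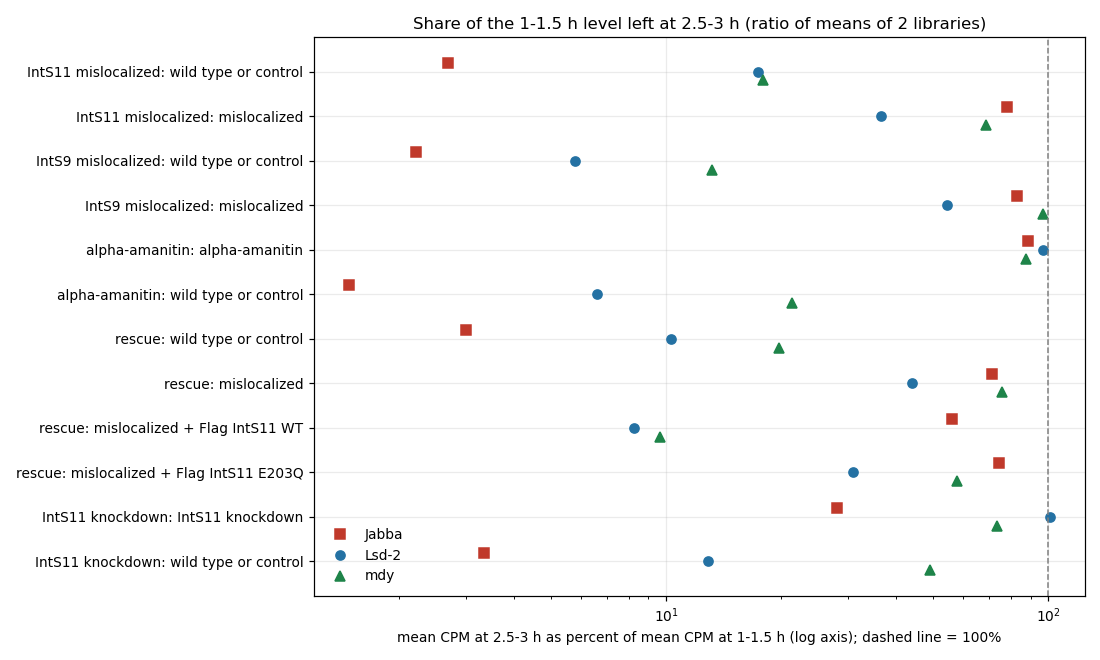
Level at 2.5 to 3 h as a percentage of that at 1 to 1.5 h (log axis) for Jabba, Lsd-2 and mdy in each embryo group, from means of 2 libraries. With Flag IntS11 WT, Lsd-2 (8.23%) and mdy (9.67%) fall to the side of the wild type groups, and Jabba (55.9%) stays with the mislocalized groups.

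In IntS11 knockdown embryos all 6 members differed from wild type in the first window and in both later ones. Lsd-1 rose to 76.2 and 69.1 CPM against 2.05 and 1.82 CPM at 0 to 0.5 h (log2 5.21, SE 0.30) and to 64.4 and 73.0 CPM against 8.56 and 5.67 CPM at 2.5 to 3 h (log2 3.24, SE 0.23). The wild type libraries held 1 to 26 counts of Lsd-1; at 1 to 1.5 h they gave 3.22 and 0.34 CPM, and the log2 difference of 5.15 there became 7.54 without the first of them and 4.38 without the second. CG10214, which overlaps Lsd-1, was at 24.8 to 50.6 CPM in the knockdown and 34.6 to 56.3 CPM in its wild type. The summed fat body markers were at 320 to 1304 CPM in the knockdown and 0 to 5.48 CPM in its wild type, where 5, 5 and 3 of the 6 had no count in the successive windows. In all other embryo libraries they were at 0 to 80.7 CPM. The signal recognition particle RNA 7SL held 15.7 to 25.5% of counts in the knockdown and 4.14 to 7.02% in its wild type. The part of either in these results was not tested.

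Lsd-2 was low from the start in the knockdown, at 165 and 194 CPM against 670 and 633 CPM at 0 to 0.5 h (log2 −1.86, SE 0.09) and 188 and 193 CPM against 650 and 687 CPM at 1 to 1.5 h (log2 −1.81, SE 0.09). Its change between the later windows was 0.02 (SE 0.09) and not called, and at 2.5 to 3 h it stood at 192 and 193 CPM against 84.6 and 87.5 CPM (log2 1.17, SE 0.10). Jabba was at 864 and 777 CPM against 428 and 410 CPM at 0 to 0.5 h, and at 140 and 184 CPM against 13.2 and 12.6 CPM at 2.5 to 3 h (log2 0.97 and 3.65, SE 0.10 and 0.16). It fell by 1.84 on the log2 scale within the knockdown and kept 28.0% of its earlier level. The mdy transcript was at 163 and 162 CPM against 56.5 and 53.2 CPM at 0 to 0.5 h and at 42.8 and 61.2 CPM against 17.1 and 16.6 CPM at 2.5 to 3 h (log2 1.57 and 1.62). Bmm had differences of −1.02, −0.93 and −1.09 over the windows, at 25.3 and 37.3 CPM against 69.2 and 57.9 CPM in the first. Klar had differences of −0.95, −0.91 and −0.85, at 116 and 120 CPM against 225 and 231 CPM in the first. In CPM no groups of these genes overlapped, but the share of all genes without overlap was not counted. In these windows 69.1%, 72.7% and 75.7% of all genes were called by the test.

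The size of these differences depends on the scaling. Total counts in place of TMM moved the median log2 difference of all genes by −0.62, −0.44 and −0.35 in the 3 windows. Jabba at 0 to 0.5 h was then 0.34, and at 1 to 1.5 h its difference of 0.59 became 0.13 and lost its call; no other called direction of the 6 was lost. In the deposited TPM several of these called directions took the opposite order. Jabba averaged 144 in the knockdown and 307 in wild type at 0 to 0.5 h, and 128 and 305 at 1 to 1.5 h. The mdy transcript averaged 18.1 and 26.3 TPM, then 9.88 and 17.9 TPM, in the same windows. Lsd-2 at 2.5 to 3 h averaged 29.6 and 32.7 TPM, and its libraries overlapped. The higher level of Jabba and mdy in the knockdown in the first 2 windows, and that of Lsd-2 in the last, thus depend on the unit. For 2 genes outside the set, TPM in the knockdown was also far lower against wild type than CPM was. At 0 to 0.5 h CG10214 averaged 26.9 CPM against 36.1 CPM in wild type, but 7.4 TPM against 41.55 TPM. IntS9 averaged 34.9 against 51.95 CPM, but 3.89 against 24.5 TPM. The part of this shift in the TPM order of the members was not tested. All 6 members were called in each window, beside 69.1%, 72.7% and 75.7% of genes, and 4 were called for the later step within the knockdown, beside 53.3%. In that step klar rose by 0.40, bmm by 0.63, and mdy fell by 0.45; each was lost without single libraries. The effect differed between the later windows for Jabba (3.06), Lsd-2 (2.98) and Lsd-1 (−1.91), among 56.7% of genes. The last was lost without replicate 2 of the wild type at 1 to 1.5 h (−1.10) or replicate 1 at 2.5 to 3 h (−1.57). Against the knockdown in the joint model, IntS11 mislocalization had a higher late effect on Jabba (2.98, SE 0.19), bmm (1.29) and klar (1.77, SE 0.15) and a lower one on Lsd-1 (−3.93, SE 0.28), and 60.1% of genes passed. Lsd-2 (0.83) and mdy (1.01) passed too, but not with no filter on low counts (0.29 and 0.46) or when only the groups compared were fitted (0.34 and 0.50). The wild type embryos of the knockdown experiment carried 4675 to 4679 CPM of the 15 listed markers of older embryos at 2.5 to 3 h, beside 205 to 399 CPM in the other 4 controls and 169 to 180 CPM in the knockdown; their part was not tested.

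By TPM at 2.5 to 3 h, Jabba was highest in the 4 mislocalized groups without Flag IntS11 WT, at 657 in IntS9 mislocalized embryos, 651 in those of the rescue experiment, 621 in IntS11 mislocalized embryos and 610 with E203Q. The single libraries of these 4 groups spanned 589 to 719 TPM, and those of IntS9 overlapped each of the other 3. Flag IntS11 WT embryos at 502 and 513 TPM, alpha-amanitin embryos at 461 and 465 TPM, and knockdown embryos at 40.2 and 38.1 TPM followed without overlap. In the knockdown, TPM in this window was also low for genes outside the set. CG10214 averaged 48.1 CPM against 52.0 CPM in wild type, but 19.0 against 49.8 TPM. IntS9 averaged 48.3 against 51.0 CPM, but 7.69 against 20.0 TPM. The part of this shift in the place of the knockdown was not tested. The controls lay at 4.70 to 12.04 TPM.

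Other genes of lipid metabolism were read as lists, of which each direction is a count of called genes. The 14 listed maternal transcripts known to be cleared, among them nos, bcd, osk and smg, all fell in control embryos in each of the 4 experiments tested, with medians of −3.88 to −3.48, at a step where 73.3 to 90.5% of all genes were called. At 2.5 to 3 h, 12, 13, 13 and 14 of them were higher with mislocalized IntS11, mislocalized IntS9, alpha-amanitin and knockdown, when 83.3%, 83.4%, 89.7% and 75.7% of all genes were called. Of all genes, 2651 were higher and 4680 lower of 8804 with mislocalized IntS11, 3724 and 3966 of 9217 with mislocalized IntS9, 3403 and 4235 of 8517 with alpha-amanitin, and 3844 and 3487 of 9681 with knockdown. Among the 14, osk was higher by 4.03, 3.999, 5.49 and 3.14. With Flag IntS11 WT, 13 of the 14 were lower than in mislocalized embryos, and against wild type 3 were higher and 5 lower, with osk at 0.00. Of all genes, 3577 were higher and 3598 lower against mislocalized embryos (78.4% called), and 2596 and 1475 against wild type (44.5%). Of the 12 genes of fatty acid synthesis and activation, 10, 10, 10 and 7 were higher and 1, 0, 2 and 1 lower in the same 4 comparisons. CG3523 (FASN1), a fatty acid synthase, was higher by 1.62 and 1.21 with mislocalization of IntS11 and IntS9 and changed by −1.38 with alpha-amanitin. Of the 14 genes of beta oxidation, 10, 13, 10 and 14 were higher and 1, 0, 3 and 0 lower. The carnitine palmitoyltransferase gene whd was higher by 0.77, 0.92 and 1.18 with mislocalized IntS11, mislocalized IntS9 and knockdown, and not called with alpha-amanitin (0.04). The medians of the fatty acid list were 1.22, 1.36, 2.35 and 0.89 and those of beta oxidation 1.23, 1.25, 1.402 and 1.94, beside −0.38, −0.02, −0.23 and 0.07 for all genes tested.

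Other genes of triglyceride synthesis, droplet motors and histone partners moved unevenly, and these counts too stand beside 75.7 to 89.7% of all genes called. With mislocalized IntS11 3 of 10 were higher and 4 lower (6 and 2 with total counts), with mislocalized IntS9 7 of 9 higher and 2 lower, with alpha-amanitin 5 and 2 of 9, and with knockdown 4 and 2 of 9 (3 and 3 with total counts). The acyltransferase gene fu12 (Agpat2) was higher by 2.66, 3.84, 4.92 and 2.28, and Lpin, a phosphatidate phosphatase, changed by −0.34, −0.53, 2.52 and −0.12, the last not called; with total counts its first value was 0.02. In the list of lipolysis, the hormone-sensitive lipase gene Hsl was higher by 2.23, 2.29, 0.87 and 1.06, and the brummer relative dob by 2.50, 2.74, 0.26 and 1.26. The other genes of that list are not given here, and bmm was not called higher in any of these comparisons. Among 13 genes of droplet motors and their partners, 8, 7, 8 and 4 were higher and 4, 5, 3 and 3 lower; with total counts the knockdown gave 3 and 6. Kinesin heavy chain, Khc, was higher by 1.2, 1.76, 1.82 and 0.49. The zygotic gene halo, a regulator of droplet transport, had log2 changes of −3.56, −9.67, −9.84 and −5.47. Its 29.8 and 31.5 CPM stood against 339 and 382 CPM with mislocalized IntS11, and 0.71 and 0.49 CPM against 486 and 492 CPM with mislocalized IntS9. In the rescue experiment halo was at 832 and 796 CPM in wild type, 68.9 and 66.8 CPM in mislocalized embryos, 755 and 765 CPM with Flag IntS11 WT and 263 and 272 CPM with E203Q. Among 7 histone partners, the embryonic linker histone BigH1 was higher by 2.94, 3.14, 3.13 and 2.66, and His2Av, a histone variant that Jabba binds on droplets, had changes of −0.57, −0.42, −1.14 and −0.73. In all, 2, 4, 3 and 4 of the 7 were higher and 5, 3, 3 and 2 lower; with total counts the first was 3 and 2 and the last 2 and 2.

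In wild type larvae all 6 genes rose from 24 to 48 h, and at 72 h Jabba and Lsd-1 were lower and bmm higher in the mutant. The first step raised Jabba by 1.42, Lsd-1 by 1.10, bmm by 0.93, mdy by 0.82, Lsd-2 by 0.61 and klar by 0.24, beside 69% of genes called; klar was at 0.00 with total counts. From 48 to 72 h Jabba rose by 0.39 and mdy by 0.22, Lsd-1, Lsd-2 and bmm fell by 0.38, 0.44 and 0.34, and klar did not pass (−0.05), beside 51.2%. In the zygotic mutant at 72 h Jabba was at 50.7 and 52.0 CPM against 144 and 138 CPM in wild type (log2 −1.46, SE 0.06, adjusted p = 1.90e-14). Bmm was at 46.6 and 47.1 CPM against 25.6 and 23.8 CPM (log2 0.92, SE 0.08, adjusted p = 1.94e-09), and Lsd-1 at 91.0 and 96.5 CPM against 121 and 124 CPM (log2 −0.39, SE 0.06). The groups do not overlap for any of these genes. Lsd-2 (0.01) and klar (−0.02) did not pass, and mdy at 0.17 lost its call with total counts (0.08), with DESeq2 (0.18) and without any single library. These 4 called members stand beside 57.2% of genes. In whole larvae, fewer cells of a type and less RNA per cell cannot be told apart.

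At 24 h bmm was already higher in the mutant, at 25.5 and 23.9 CPM against 15.6 and 17.4 CPM (log2 0.60, SE 0.09), as was Lsd-1, at 91.5 and 94.9 CPM against 76.3 and 72.9 CPM (log2 0.32, SE 0.06), when 9.97% of genes were called. At 48 h mdy alone passed, at −0.27 (adjusted p = 0.00752), beside 29.8%; it was lost without replicate 1 of the mutant (−0.22). Jabba had changes of −0.15 and −0.13 at these times, called in neither. At 72 h 13 of 14 beta oxidation genes were higher in the mutant and none lower (median 0.52, beside −0.05 for all genes), whd by 0.55, while 5 of 12 fatty acid synthesis genes were higher and 7 lower, with CG3523 at −0.90. Of all 11409 genes tested in that comparison, 57.2% were called, 3034 higher and 3495 lower. The 6 fat body markers summed to 473 to 481 CPM in the mutant and at most 10.5 CPM in wild type at 72 h, and to 89.8 to 92.2 CPM and 0.40 to 1.14 CPM at 48 h. The 8 gut markers summed to 5864 to 6070 CPM and 10040 to 10400 CPM at 72 h. Their part in the larval results was not tested.

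**Figure D5:**
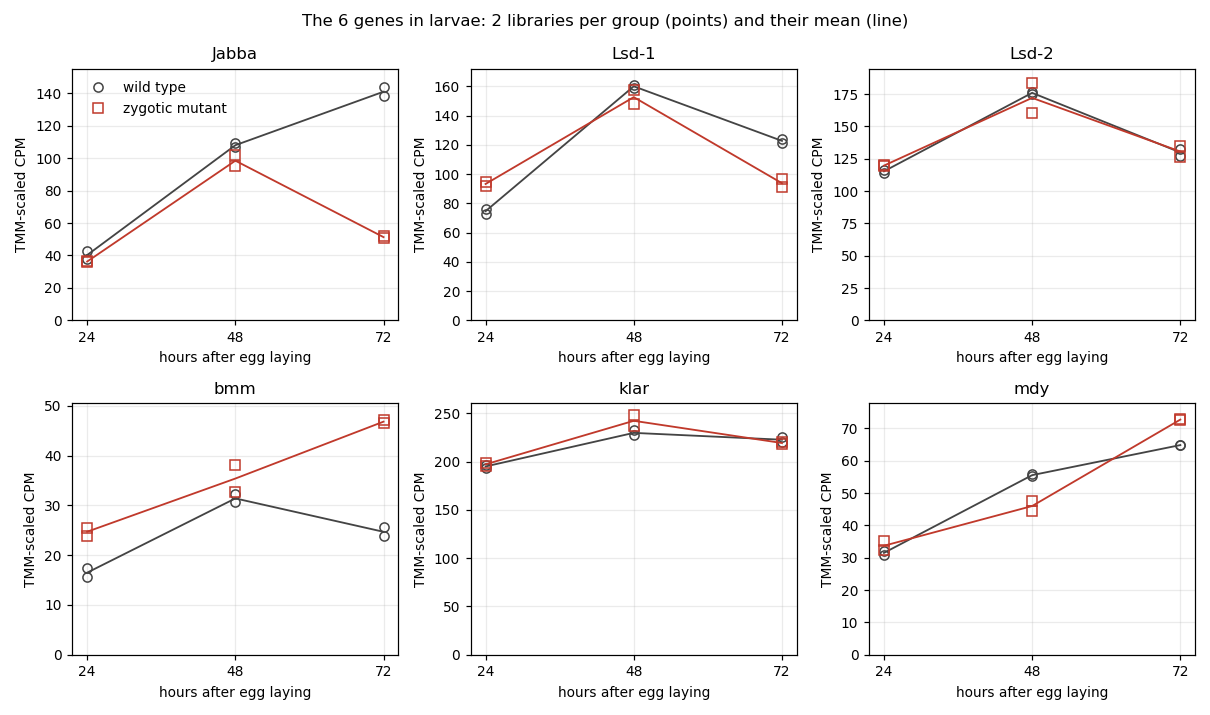
The 6 genes in larvae at 24, 48 and 72 h after egg laying. Points are the TMM-scaled CPM of single libraries and lines join means of 2; at 72 h Jabba is lower in zygotic mutant larvae (50.7 and 52.0 CPM) than in wild type (144 and 138 CPM), and bmm is higher.

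As a description of pattern, each member was compared with 7744 genes by Pearson's r of log2(CPM + 1) over the 30 embryo group means, which share libraries and controls. The 3 most alike were AdSL (0.96), krimp (0.95) and CG18476 (0.94) for Jabba, CG43313 (0.99), stai (0.98) and orb (0.98) for Lsd-2, and CG32221 (0.96), HPS1 (0.96) and CG13907 (0.96) for mdy. For bmm they were Tango6 (0.96), unk (0.96) and Su(H) (0.95), for klar CG1965 (0.92), Patronin (0.91) and chb (0.91), and for Lsd-1 CG33470 (0.94), CG30380 (0.93) and RpS19b (0.93). Among the members themselves the values were 0.77 for Jabba with Lsd-2, 0.67 for Jabba with mdy, 0.75 for Lsd-2 with mdy and −0.79 for bmm with mdy.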

How the data were processed

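RNA was extracted with TRIzol, depleted of rRNA and made into strand-specific libraries, per the labels' protocols. Per the submitters' processing notes, the tools named are STAR 2.7.10a, RSEM 1.3.1, Trimmomatic 0.39 and DESeq2 1.40.2, with the dm6 build; their settings, strand use in counting included, were not given in the sources used here. Deposited tables give, per gene and library, an expected count, TPM, FPKM and a mean transcript length, per the file headers. The deposited expected counts were rounded and tested; TPM served only for levels between genes and groups, and the authors' FPKM was not used. The 6 genes and all gene lists were chosen with earlier results of these data known.

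Each experiment was fitted alone with edgeR 4.0.16 (R 4.3.3, limma 3.58.1): TMM scaling, filterByExpr by group, 1 mean per group, robust quasi-likelihood, with Benjamini-Hochberg adjustment over all genes tested and a threshold of 0.05. The SE is the absolute log2 change divided by the square root of F. A joint fit of the IntS11, IntS9 and knockdown experiments tested differences between lines. The fit was tested on simulated data in which only a small share of genes was changed. Most genes were called in the late comparisons, so the simulation cannot check the scaling there. Each result was recomputed with DESeq2 1.42.0, with RLE size factors, with scaling by total counts, without the filter, with a fit of just the groups being compared, with a replicate block and without each library in turn. Replicates within groups differed by 1.16 to 29.9 in chi-square per gene, and none was counted as a repeat. The pairs of the knockdown wild type were at 1.16, 1.38 and 1.17 in the successive windows. Counting noise alone gives values near 1, so for these pairs the measure cannot exclude repeats of the same RNA. Replicate numbers were treated only as labels. Deviations of same-numbered libraries had correlations of −0.20 to 0.18 between groups, with medians of −0.05 to 0.03 per fit. Some pairs of groups were beyond the threshold of 0.1, but not every pair. Of the listed genes, 127 of 129 matched a row, through current and older symbols. Other genes are named only if they are on a list (at most 4 per list and comparison, in list order among those called) or among the 3 most alike per member. Genome sequence was not used here, so no sequence is printed.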

Additional observations from a re-analysis of the deposited data

Results flagged for a closer look

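Effects that differed between 2 windows or 2 lines, by a test of the difference itself in edgeR, were called for 28 of the 36 pairings of a member with such a comparison. Of all genes tested, 60.8%, 66.2%, 72.7% and 56.7% passed the same test between windows for mislocalized IntS11, mislocalized IntS9, alpha-amanitin and knockdown. Between lines, 26.4% passed for IntS11 minus IntS9 and 60.1% for IntS11 minus knockdown. All values are on the log2 scale.

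For the effect at 2.5 to 3 h minus that at 1 to 1.5 h, mislocalized IntS11 gave 4.86 for Jabba, 1.94 for mdy, 1.07 for Lsd-2, −0.89 for Lsd-1 and −0.35 for klar. Those of Lsd-1 and klar lost their calls in 7 and 9 of 14 settings. Mislocalized IntS9 gave 5.23 for Jabba, 3.23 for Lsd-2, 2.87 for mdy, −1.48 for Lsd-1 and −0.39 for bmm. Alpha-amanitin gave 5.91 for Jabba, 3.87 for Lsd-2, 2.01 for mdy, −2.41 for Lsd-1 and −1.19 for bmm. Knockdown gave 3.06 for Jabba, 2.98 for Lsd-2 and −1.91 for Lsd-1, and that of Lsd-1 lost its call in 2 of 14 settings.

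For the late effect of mislocalized IntS11 minus that of mislocalized IntS9, Lsd-1 gave −3.10, Lsd-2 −1.58, mdy −1.02 and klar 0.46. That klar call was lost in 4 of 14 settings. For mislocalized IntS11 minus knockdown, Lsd-1 gave −3.93, Jabba 2.98, klar 1.77, bmm 1.29, mdy 1.01 and Lsd-2 0.83. Here the calls of mdy and Lsd-2 were each lost in 2 of 14 settings. The joint fit holds 3 separate wild types, and line and experiment cannot be told apart in it.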

How the results depend on the processing

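Of 258 member values, 179 were called, and 138 of these kept their call and direction under all settings run. No called value changed direction under any of them. Klar with mislocalized IntS9 at 2.5 to 3 h, not called at 0.04, became −0.11 and called with RLE size factors (adjusted p = 0.0495). Another 41 uncalled values changed sign while uncalled, 18 of them for klar. With the replicate block all 179 called values stayed called, and genes called within alpha-amanitin embryos between windows went from 242 to 145. Replicate numbers were not taken to pair the libraries.

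Members called for the mislocalized IntS11 effect between windows went from 5 to 3 with total counts, no filter or only the groups compared. Only the groups compared also gave 5 for 3 in the IntS9 wild type between the first windows, 2 for 0 within alpha-amanitin embryos and 1 for 3 for Flag IntS11 WT against mislocalized at 1 to 1.5 h. In the knockdown wild type between the first windows RLE and DESeq2 gave 0 for 1. Genes called there were 313 with no filter and 771 with only the groups compared, for 163. Within alpha-amanitin embryos they were 453 and 1918. DESeq2 called 685 for 1137 in larvae at 24 h and 2504 for 4000 for E203Q against mislocalized at 1 to 1.5 h. Only the groups compared gave 1136 for 2213 genes for Flag IntS11 WT against mislocalized at 1 to 1.5 h, 2380 for 4180 against E203Q and 2550 for 3971 against wild type. The cause was not tested.

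Without single libraries, members called ranged from 0 to 1 in larvae at 48 h, 1 to 2 with mislocalized IntS11 at 0 to 0.5 h and 3 to 6 for its effect between windows. They ranged from 2 to 4 within the knockdown, 0 to 0 in its wild type between the first windows, 1 to 2 with alpha-amanitin at 1 to 1.5 h, and 0 to 4 and 2 to 4 for Flag IntS11 WT at 1 to 1.5 h against mislocalized (0 without replicate 2 of the mislocalized embryos) and wild type. Genes called ranged from 490 to 852 in larvae at 24 h, 1758 to 2924 with mislocalized IntS11 at 0 to 0.5 h and 1788 to 1975 in its wild type between the first windows. They ranged from 65 to 84 in the knockdown wild type, 1499 to 2184 with alpha-amanitin at 1 to 1.5 h and 13 to 24 within alpha-amanitin embryos. A group left with 1 library was assumed to vary like the others. Scaling moved the median of all genes by −0.62 to 0.36, and depth limits Lsd-1 in the knockdown wild type, at 1 to 26 counts a library.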
